A study of Felis catus with 12 samples.

Results

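The 4 libraries sequenced on flow cell PAK20671 were compared with the 8 libraries of the same series that were sequenced on flow cells PAM73681 and PAM73696. A flow cell is the disposable chip of nanopores on which one pool of barcoded RNA is read. The PAK20671 libraries came from cats 11, 23, 30 and 31, and they were chosen by the flow cell name that opens their column in the deposited table, so no measured value entered the choice. They are 4 of 12 libraries, and each flow cell held 4 cats, 1 library per cat. PAM73681 carried cats 10, 15, 35 and 36, and PAM73696 carried the libraries labelled as cats 37, 38, 29 and 22.

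All 12 samples were left ventricular tissue of client-owned domestic cats of mixed breeds, taken after death, with total RNA isolated on a column and read directly as RNA by Oxford Nanopore sequencing. No experimental treatment was given, the genotypes of the cats were not in the labels, and neither were their ages. In the study's cohort description, 3 of the PAK20671 cats (11, 30 and 31) were listed with congestive heart failure (HF) and 1 (cat 23) with arterial thromboembolism (ATE), a clot carried into an artery. The PAM73681 cats were listed with HF (15 and 35), with ATE (10) and without known cardiac death (36), and the PAM73696 cats with HF (37) and ATE (38). The remaining 2 PAM73696 libraries carry the labels of cats 22 and 29, which the study does not name among its sequenced animals, and no outcome was assigned to them here. By the same description, cats 23, 30, 31 and 36 were neutered females and cats 10, 11, 15, 37 and 38 neutered males. No sex was given for cat 35. Sex was thus uneven between the flow cells. The same description gives an age for each of these cats except cat 35. It lists cat 11 as a Birman, cats 15 and 35 as Maine Coons and the rest of them as domestic short hairs. Neither sex, age nor breed entered any fit. Because each cat was read on 1 flow cell only, the flow cell and the cats it carried cannot be told apart in any comparison that follows.

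Ventricular muscle is built from cardiomyocytes, whose thick and thin filaments form the sarcomere and whose mitochondria burn mainly fatty acids to supply ATP. Fibroblasts between the muscle cells lay down collagens and other matrix proteins, and after injury they secrete more of them, together with matricellular proteins such as tenascin that appear in healing tissue. Stressed myocardium is known to lose transcripts of oxidative metabolism and adult contractile proteins while stretch and stress transcripts rise.

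Total reads on genes ranged from 789257 to 2263110 per library, with cat 11 the deepest and cat 23 the shallowest, so both extremes were on PAK20671. Neither the reads on genes, nor the number of genes with a read after thinning to 789257 reads (12430 ± 214 on PAK20671, SD, n = 4, and 12055 ± 386 on the others, SD, n = 8), nor the share of reads in the 10 most abundant genes (22.5% ± 2.31 and 24.2% ± 3.45) differed past the threshold (two-sided exact permutation tests, p = 0.434, 0.109 and 0.432; adjusted p = 0.434, 0.327 and 0.434). All 13 mitochondrially encoded genes in the table were listed at 0 reads in every library. The cardiomyocyte genes MYL2 and CKM together took between 10.8% and 13.8% of the reads on PAK20671 and between 8.94% and 20.0% on the others. Values below are scaled reads, that is reads divided by the size factor of the library as deposited, and differences are on the log2(scaled reads + 1) scale with their standard error.

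The first principal component, over the 8820 genes that reached 10 reads in 3 or more libraries, carried 23.6% of the variance and put the 4 PAK20671 libraries on one side. Cat 11 scored 68.4, cat 31 scored 54.9, cat 23 scored 17.9 and cat 30 scored 12.0, whereas the other 8 libraries lay between -43.9 and -7.09. The PAK20671 libraries were thus not alike, since cats 11 and 31 stood farther from the other flow cells than cats 23 and 30.

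**Figure D1:**
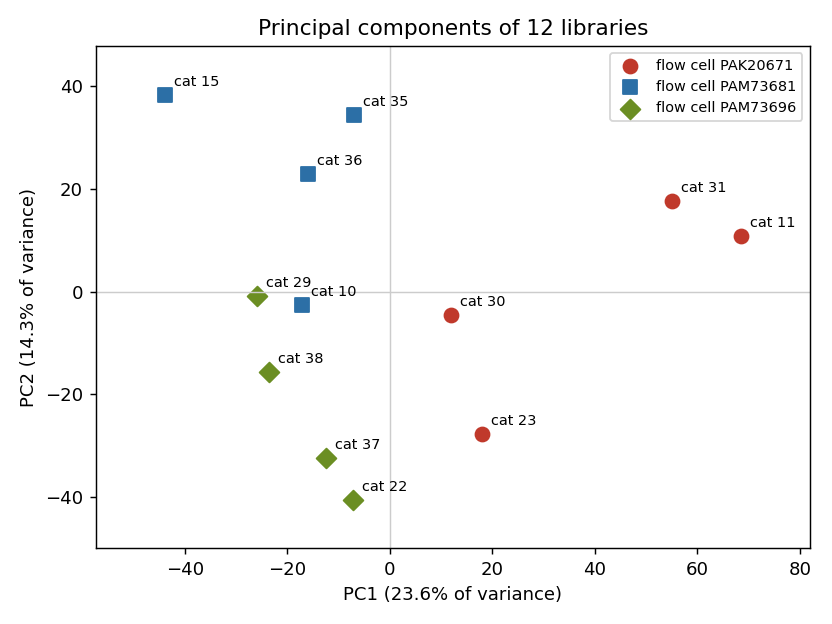
Scores of the 12 libraries on the first (x axis, 23.6% of the variance) and second (y axis, 14.3%) principal component of log2(scaled reads + 1); each point is 1 library, marked by flow cell and labelled by cat. All 4 PAK20671 libraries have positive scores on the first component and the other 8 have negative ones.

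A total of 446 of 8820 genes, 5.06%, differed between PAK20671 and the other 8 libraries at an adjusted p under 0.05 (limma, Benjamini-Hochberg). Of these, 141 (1.6% of the genes tested) were higher on PAK20671 and 305 (3.46%) were lower. These shares are the background for each list count below. The rises were larger than the falls: the median rise among called genes was 1.40 on the log2 scale and the largest 5.90, against a median fall of -1.09 and a largest fall of -2.61. The largest rise was that of CNN1, with 0 to 17 reads in the other 8 libraries. A gene that low passes the filter through the high group alone, and its rise depends on the 1 added before the log. Sizes of rises and falls are therefore not directly comparable. The median over all genes tested was 0.03. In 150 genes (1.7%) all 4 PAK20671 libraries lay above all 8 others and in 221 genes (2.51%) all 4 lay below them; 79 and 172 of these were among the called genes. The split into higher and lower genes depended on the scaling. With CPM scaling by total reads in place of the deposited size factors, which moved the median of all genes to 0.22, 325 genes were higher and 140 lower; with no scaling at all (median 0.41), 76 were higher and 5 lower; and with edgeR on the recovered reads, 191 were higher and 247 lower.

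Cats 11 and 31 carried much of this count. Among the 141 higher genes, cat 11 was above all 8 other libraries in 139, cat 31 in 133, cat 23 in 113 and cat 30 in 99. Among the 305 lower genes, cat 11 was below all 8 in 295, cat 31 in 272, cat 30 in 247 and cat 23 in 238. Without cat 11 the count fell to 51 genes (9 higher, 42 lower), without cat 31 to 129 (26 higher, 103 lower), and without cat 15 of PAM73681, whose score was farthest on the other side, to 296. When only the cats listed with HF were compared, 3 on each side, 4 genes passed (1433 at an unadjusted p under 0.05), and with the outcome as a covariate 75 passed.

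The genes with the smallest p among those higher on PAK20671 were led by CNN1, which encodes calponin, an actin-binding protein of smooth muscle. CNN1 reached 259 scaled reads in cat 11, 76.6 in cat 23, 47.1 in cat 30 and 440 in cat 31, while the other 8 libraries ranged from 0 to 19.2 with a median of 1.12. The groups did not overlap, and the difference was 5.90 ± 0.75 (adjusted p = 0.00232). TNC encodes tenascin-C, a matricellular glycoprotein of healing tissue. TNC values were 709, 99.4, 84.2 and 168 in cats 11, 23, 30 and 31, against 0 to 17.8 with a median of 3.53 in the others, again with no overlap (5.53 ± 0.77, adjusted p = 0.00232). CNN1 and TNC were the 2 named genes that passed under every alternative in which they were tested, including the comparison of HF cats alone. Neither entered the fit limited to genes with 10 reads in all libraries. Both had 0 reads in some of the other libraries, and at most 17 (CNN1) and 20 (TNC). They reached 10 reads in 3 libraries only through PAK20671, so their passing describes these libraries and is no separate support.

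SERPINB2, the plasminogen activator inhibitor type 2, was abundant on PAK20671. SERPINB2 stood at 12160 scaled reads in cat 11, 2189 in cat 23, 2157 in cat 30 and 8327 in cat 31, against 177 to 1164 with a median of 382 elsewhere (3.45 ± 0.53, adjusted p = 0.00294). The lowest of the 4 was thus above the highest of the 8. RRAS2, a small GTPase of the RAS family, gave 649, 99.4, 133 and 326 in cats 11, 23, 30 and 31 against 20.5 to 55.4 (median 38.2) in the others, a difference of 2.67 ± 0.40 (adjusted p = 0.00232). TAGLN, which encodes transgelin, an actin-binding protein of smooth muscle and activated fibroblasts, gave 744, 231, 188 and 724 against 28.6 to 134 (median 61.3), a difference of 2.63 ± 0.45 (adjusted p = 0.00589). In all 3 genes cats 11 and 31 were the highest of the 12 libraries, and cats 23 and 30 lay between them and the rest.

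**Figure D2:**
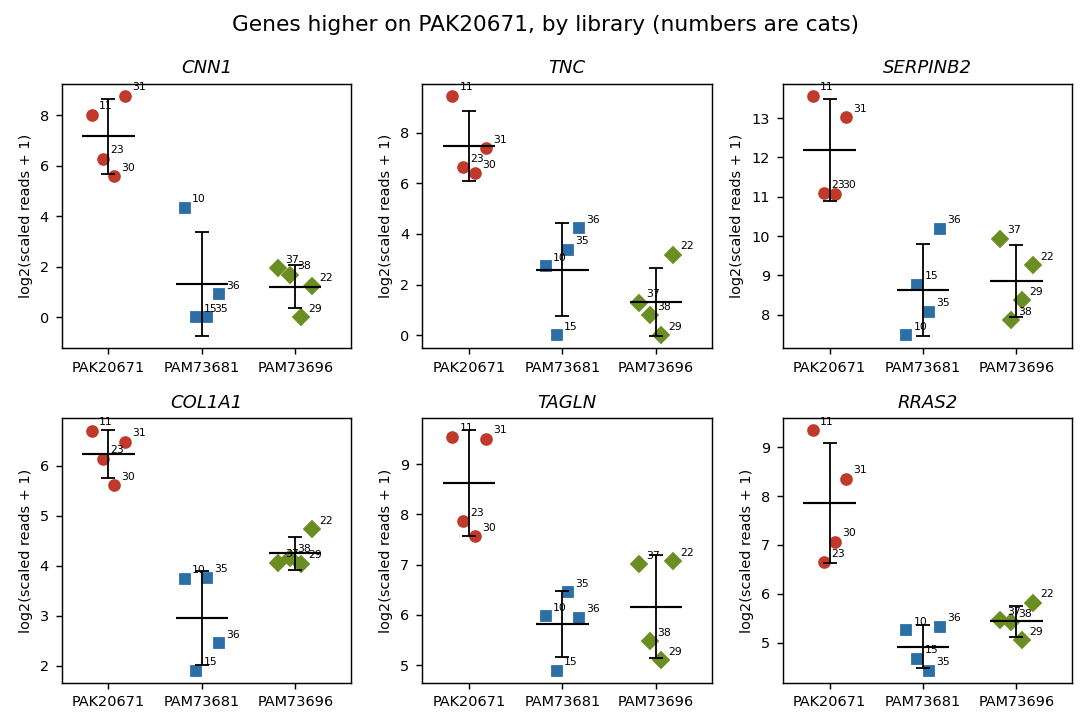
Log2(scaled reads + 1) (y axis) of 6 genes higher on PAK20671 in each of the 12 libraries, by flow cell (x axis); each point is 1 library labelled by its cat, and the line and bar are the mean and SD of 4 libraries. In CNN1, TNC, SERPINB2, COL1A1, TAGLN and RRAS2 no PAK20671 library reaches down to the other 8.

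The other higher genes with the smallest p had varied roles. UGDH, which makes the sugar nucleotide used for glycosaminoglycans, gave 432, 118, 157 and 151 scaled reads in cats 11, 23, 30 and 31 against 22.1 to 102 (2.00 ± 0.36, adjusted p = 0.00777). CFL2, the muscle cofilin that severs actin filaments, gave 1198, 508, 646 and 1623 against 215 to 431 (1.51 ± 0.28, adjusted p = 0.00799). TRAM1, a component of the protein translocation site of the endoplasmic reticulum, gave 209, 152, 135 and 168 against 58.7 to 95.9 (1.06 ± 0.19, adjusted p = 0.00799). None of these 3 genes overlapped between the groups, and TRAM1 was the most even of them across the 4 cats. ABHD2, a lipid hydrolase, differed by 1.48 ± 0.26, NDE1, a dynein-associated protein of the centrosome, by 2.58 ± 0.48 and the open reading frame CB1H4orf54 by 3.87 ± 0.65. Counts of NDE1 were low, with 9.26 to 46.8 scaled reads on PAK20671 and 1.11 to 7.89 on the others.

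Genes of fibroblasts and matrix were higher as a group. Of 33 tested members of the list, 11 rose, none fell and 22 did not pass, against 1.6% of all genes rising; the median of the list was 0.99, against 0.03 over all genes. The members took 0.445% to 0.821% of the reads on PAK20671 and 0.129% to 0.446% on the others, so only cat 31 and the library labelled cat 22 met. In bulk tissue, more cells of a type and more RNA per cell cannot be told apart. COL1A1, a chain of type I collagen, gave 103, 69.9, 48.0 and 88.5 in cats 11, 23, 30 and 31 against 2.72 to 25.7 with a median of 14.1 (2.63 ± 0.44, adjusted p = 0.00561). COL6A3, a chain of type VI collagen, gave 365, 207, 99.3 and 207 against 17.7 to 111 (1.92 ± 0.40, adjusted p = 0.015), with cat 30 inside the range of the others. COL5A2 of type V collagen gave 75.8, 81.9, 49.7 and 79.8 against 13.6 to 48.6 (1.45 ± 0.32, adjusted p = 0.017).

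COL3A1, which forms fibrils with type I collagen, gave 325, 525, 147 and 311 against 29.95 to 263 (1.84 ± 0.51, adjusted p = 0.0451). Here cat 23 and not cat 11 was highest, and cat 30 lay inside the range of the others. The other risen members were COL5A1, COL6A1, COL6A2, fibronectin (FN1), thrombospondin 1 (THBS1), fibrillin 1 (FBN1) and vimentin (VIM), with differences between 1.08 for VIM and 2.61 for COL5A1. DCN, which encodes decorin, gave 580, 1308, 638 and 281 against 184 to 728 (adjusted p = 0.526), and the groups overlapped. The fibroblast count depended on cats 11 and 31: without cat 11 or without cat 31 only 1 member passed, while the median stayed at 1.01 and 1.14; among HF cats alone no member passed, with a median of 1.06.

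Genes of actin filaments and adhesion were gathered into a list after their values had been seen, so their count is a description only. Of 60 tested, 12 were higher and 2 lower, with a median of 0.65, against 1.6% and 3.46% of all genes. ACTN1, the alpha-actinin of non-muscle cells, gave 118, 28.2, 40.4 and 98.9 in cats 11, 23, 30 and 31 against 2.72 to 27.2 (2.39 ± 0.50, adjusted p = 0.0145). MYH9, the heavy chain of non-muscle myosin IIA, gave 362, 168, 167 and 228 against 57.2 to 130 (1.28 ± 0.25, adjusted p = 0.0093). Both were above every other library in all 4 cats. The remaining higher members were ACTB, ACTR3, ARPC5, CFL1, CFL2, ITGB1, MSN, PFN1, TPM4 and VCL, and the lower members were TPM3 and FHOD3, a formin of the cardiac sarcomere. Without cat 11 no member of this list passed, and 4 did so without cat 31.

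Smooth muscle markers did not move together. Of 12 tested, CNN1 and TAGLN rose and SMTN, smoothelin, fell (-1.26 ± 0.35, adjusted p = 0.0448), with a median of 0.35. Over all genes, 1.6% rose and 3.46% fell. MYH11, the smooth muscle myosin that defines the cell type, gave 3.86, 10.7, 16.8 and 2.39 scaled reads against 1.36 to 17.6 (adjusted p = 0.913), and ACTA2 gave 110, 126, 117 and 104 against 49.0 to 152 (adjusted p = 0.522). Both overlapped between the groups, while the summed level of the list was 0.11% to 0.161% of reads on PAK20671 and 0.0445% to 0.108% on the others. CNN1 and TAGLN are counted in this sum. Endothelial genes were near the background, with none of 31 past the threshold and a median of 0.13. PECAM1, an adhesion molecule of endothelium, gave 117, 61.8, 159 and 59.0 against 52.0 to 113 (adjusted p = 0.836), and VWF and CDH5 overlapped likewise (adjusted p = 0.498 and 0.456).

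Macrophage and myeloid genes had a median of 0.61 and 23 of 24 positive differences, yet none passed the threshold. Their summed level was 0.164% of reads in cat 11, 0.0837% in cat 23, 0.0713% in cat 30 and 0.139% in cat 31, inside the range of 0.0406% to 0.371% in the others, whose highest value was cat 35. The next highest of the others was 0.0837% in cat 38, so cats 11 and 31 were above all of them except cat 35. CD68, a lysosomal protein of macrophages, gave 43.9, 29.6, 17.7 and 39.1 scaled reads against 14.7 to 35.1 (adjusted p = 0.38), and PTPRC, the leukocyte antigen CD45, stayed at 0 to 9.57 against 0 to 11.8. Lymphocyte genes were close to the detection limit: 3 of 26 were tested, and CD3E gave 1.34 to 2.53 scaled reads against 0 to 5.15. Of the markers of adipocytes, ADIPOQ had scaled reads of 0, 0, 0 and 0.798 in cats 11, 23, 30 and 31 and of 0 to 4.51 in the others. None of the 13 erythroid and platelet genes in the table was deep enough to be tested. No tested marker of Schwann cells and neurons (4 genes), mesothelium (2) or lung, liver and kidney (2) passed.

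An acute response gene was among the higher genes. PTX3, a soluble pattern recognition molecule of innate immunity, gave 104, 10.7, 18.5 and 57.4 scaled reads in cats 11, 23, 30 and 31 against 0 to 12.2 (3.46 ± 0.76, adjusted p = 0.0165). Cats 11 and 31 were clear of the others, and cat 23 lay inside their range. PTX3 was 1 of the 4 genes that passed among HF cats alone, and the fourth, besides CNN1 and TNC, was the adaptor gene SH3BP2, lower on PAK20671 and named only because it passed there. The 14 tested genes of the acute phase list had a median of 0.38, and 2 of them were higher, against 1.6% of all genes rising.

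Stress and stretch genes were high in part. CRYAB, the small heat shock protein alpha B-crystallin that protects desmin and titin, gave 26021, 13897, 10970 and 34004 scaled reads in cats 11, 23, 30 and 31 against 4564 to 11884 (1.26 ± 0.32, adjusted p = 0.0341). HSPB1, a related small heat shock protein, gave 6927, 4064, 3790 and 9729 against 1308 to 3721 (1.15 ± 0.31, adjusted p = 0.0443), and HSP90AA1, the inducible cytosolic HSP90, gave 535, 475, 494.9 and 497 against 161 to 381 (0.81 ± 0.20, adjusted p = 0.0311). CRYAB of cat 30 was inside the range of the others, whereas HSPB1 and HSP90AA1 did not overlap. These were 3 of 50 tested chaperone genes and no other member passed, with a median of 0.14, against 1.6% of all genes rising. The summed level of the list was 2.78% to 4.87% of reads on PAK20671 and 1.33% to 2.46% on the others. The abundant CRYAB and HSPB1 are counted in this sum, so it does not describe the other members. Without cat 11 or without cat 31 none of the 3 passed.

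ANKRD2, a titin-binding protein that responds to stretch, gave 3475, 1046, 666 and 3682 against 55.2 to 1713 (2.83 ± 0.67, adjusted p = 0.0235), with cats 11 and 31 above all others and cats 23 and 30 inside their range. ANKRD2 was the 1 higher gene of 11 tested natriuretic and stretch genes (median 0.52), against 1.6% of all genes rising. The 1 lower gene of that list was MYH7 (-1.45 ± 0.28), which is described with the sarcomere below. ANKRD1 and the natriuretic peptides NPPA and NPPB did not pass (adjusted p = 0.123, 0.355 and 0.122). MYL1, a myosin light chain of fast skeletal muscle, gave 513, 137, 101 and 2379 against 2.22 to 124 (3.98 ± 0.86, adjusted p = 0.0155), and it was the 1 gene of 6 tested skeletal muscle genes to pass. Immediate early genes (25 tested), genes of endoplasmic reticulum stress (31), chromatin regulators (60), growth factor signalling (44), interferon response (20) and the TGF-beta pathway (23, of which 21 had positive differences) held no called member, with medians of 0.39, 0.25, 0.14, 0.05, -0.31 and 0.45.

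Nuclear genes of the respiratory chain were lower on PAK20671. In complex I, which passes electrons from NADH to ubiquinone, 17 of 38 tested subunits fell, none rose and 21 did not pass, against 3.46% of all genes falling; 37 of the 38 differences were negative, with a median of -0.73. The subunits took 1.28%, 1.89%, 1.96% and 1.58% of the reads in cats 11, 23, 30 and 31 and 2.17% to 2.99% in the other libraries, so the summed levels did not overlap. NDUFS6, an accessory subunit near the NADH-oxidising arm, gave 307, 318, 343 and 400 scaled reads against 603 to 1115 with a median of 948 (-1.37 ± 0.19, adjusted p = 0.00232). NDUFB9 gave 582, 771, 692 and 868 against 1440 to 2527 with a median of 1862 (-1.34 ± 0.19, adjusted p = 0.00232), and NDUFB7 gave 132, 183, 166 and 162 against 292 to 602 (-1.44 ± 0.21, adjusted p = 0.00232). In these 3 accessory subunits the 4 cats lay close together, in contrast to the spread seen in CNN1 or SERPINB2.

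The other respiratory complexes followed in 10 of 31 tested subunits, with a median of -0.61 and none higher, against 3.46% of all genes falling. ATP5F1D, the delta subunit of ATP synthase, gave 398, 681, 502 and 614 scaled reads against 910 to 1558 (-1.12 ± 0.20, adjusted p = 0.00694). ATP5PD differed by -1.09 ± 0.20 and ATP5ME by -1.04 ± 0.20 (adjusted p = 0.00783 and 0.00879), and neither overlapped. SDHB, the iron-sulfur subunit of succinate dehydrogenase, overlapped because cat 23 stood at 1750 and the others began at 1456 (-0.68 ± 0.19, adjusted p = 0.0457). Without cat 11, 5 genes of complex I and 2 of the other complexes passed, and without cat 31, 10 and 4; with CPM scaling 11 and 4 passed, and with the outcome as a covariate 5 and 1. Among HF cats alone, and with no scaling, no gene of either list passed. The medians of both lists stayed negative in each of these.

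Further mitochondrial genes were lower. The share to set beside each count is the 3.46% of all genes that fell. Of 77 tested genes of the mitochondrial ribosome, which translates the mitochondrial genome, 9 fell and none rose (median -0.34); 3 passed without cat 11, 5 without cat 31 and 0 among HF cats alone. MRPS15 gave 109, 117, 135 and 128 scaled reads in cats 11, 23, 30 and 31 against 205 to 385 (-1.16 ± 0.18, adjusted p = 0.00384), and MRPL12 gave 170, 313, 210 and 190 against 446 to 951 (-1.38 ± 0.22, adjusted p = 0.00403). MRPS25 differed by -1.18 ± 0.20, and all 3 ribosomal genes were below every other library. Of 38 tested import and carrier genes, 8 fell (median -0.38), among them TIMM8B, TIMM44 and SLC25A11, the oxoglutarate carrier, with -0.92, -1.03 and -0.68. None of the import and carrier genes passed without cat 11, without cat 31 or with the outcome as a covariate, and 1 passed with CPM scaling. Of 24 genes of the TCA cycle, IDH2, SUCLG1 and SDHB fell (median -0.50), and none passed without cat 11, without cat 31 or with the outcome as a covariate. With no scaling, the medians of the mitochondrial ribosome and import lists were 0.05 and 0.01, so their direction flipped there, against a median of 0.41 over all genes.

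Fuel metabolism was lower in the same direction, but unevenly among the cats. Of 29 tested genes of fatty acid uptake and oxidation, 9 fell and none rose (median -0.67), against 3.46% of all genes falling. ETFB, the beta subunit of the flavoprotein that takes electrons from fatty acid oxidation, gave 193, 257, 211 and 219 scaled reads against 458 to 1390 (-1.51 ± 0.25, adjusted p = 0.00557) and was similar in all 4 cats. PLIN5, which ties lipid droplets to mitochondria, gave 7.24 in cat 11 and 7.98 in cat 31 but 90.0 in cat 23 and 62.3 in cat 30, against 78.4 to 184 (-2.27 ± 0.53, adjusted p = 0.0211). PLIN5 was therefore low mainly in cats 11 and 31, and cat 23 was inside the range of the others. ACAA2, a thiolase of the last step of beta-oxidation, gave 68.5, 96.7, 104 and 59.0 against 122 to 249 (-0.93 ± 0.22, adjusted p = 0.0223). Without either cat 11 or cat 31, 1 gene of this list passed, and none did among HF cats alone.

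In glycolysis and glycogen metabolism 6 of 26 genes fell and none rose (median -0.42), against 3.46% of all genes falling. Without cat 11 none passed, without cat 31, 2, and with the outcome as a covariate, none. PGAM2, the muscle phosphoglycerate mutase, gave 107, 563, 375 and 145 scaled reads in cats 11, 23, 30 and 31 against 608 to 1510 (-1.91 ± 0.37, adjusted p = 0.0093). PFKL differed by -1.07 ± 0.21 and SLC2A4, the insulin-responsive glucose transporter GLUT4, by -1.12 ± 0.25 (adjusted p = 0.00965 and 0.0192). None of these 3 genes overlapped between the groups. PLIN5 was also the 1 called gene among 8 tested adipocyte genes. ESRRA, a nuclear receptor that drives genes of oxidative metabolism, gave 51.2, 118, 123 and 49.5 against 139 to 244 (-1.18 ± 0.26, adjusted p = 0.0159), and KLF15, a transcription factor of cardiac lipid and amino acid metabolism, gave 4.83, 16.1, 23.6 and 11.2 against 22.3 to 58.7 (-1.62 ± 0.35, adjusted p = 0.0161). These were the 2 called genes of 18 cardiomyocyte transcription factors (median -0.40), against 3.46% of all genes falling. Neither ESRRA nor KLF15 passed without cat 11 or without cat 31.

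Contractile genes were lower as well. Of 28 sarcomere genes, 9 fell, none rose and 19 did not pass (median -0.58), against 3.46% of all genes falling. TCAP, telethonin of the Z-disc, gave 406, 853, 792 and 614 scaled reads in cats 11, 23, 30 and 31 against 1434 to 2772 (-1.55 ± 0.23, adjusted p = 0.00232). MYBPC3, cardiac myosin binding protein C and a gene of inherited hypertrophic cardiomyopathy, gave 212, 419, 508 and 238 against 820 to 1704 with a median of 1055 (-1.82 ± 0.27, adjusted p = 0.00232). TNNT2, cardiac troponin T, gave 2763, 3381, 3746 and 3586 against 5516 to 11001 (-1.05 ± 0.20, adjusted p = 0.00879). MYH7, the main myosin heavy chain of the ventricle, gave 1386, 2043, 3984 and 1358 against 4219 to 9273 (-1.45 ± 0.28, adjusted p = 0.0093); its sequence is close to that of MYH6, so reads of the 2 genes may be shared. In all 4 genes the groups did not overlap.

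**Figure D3:**
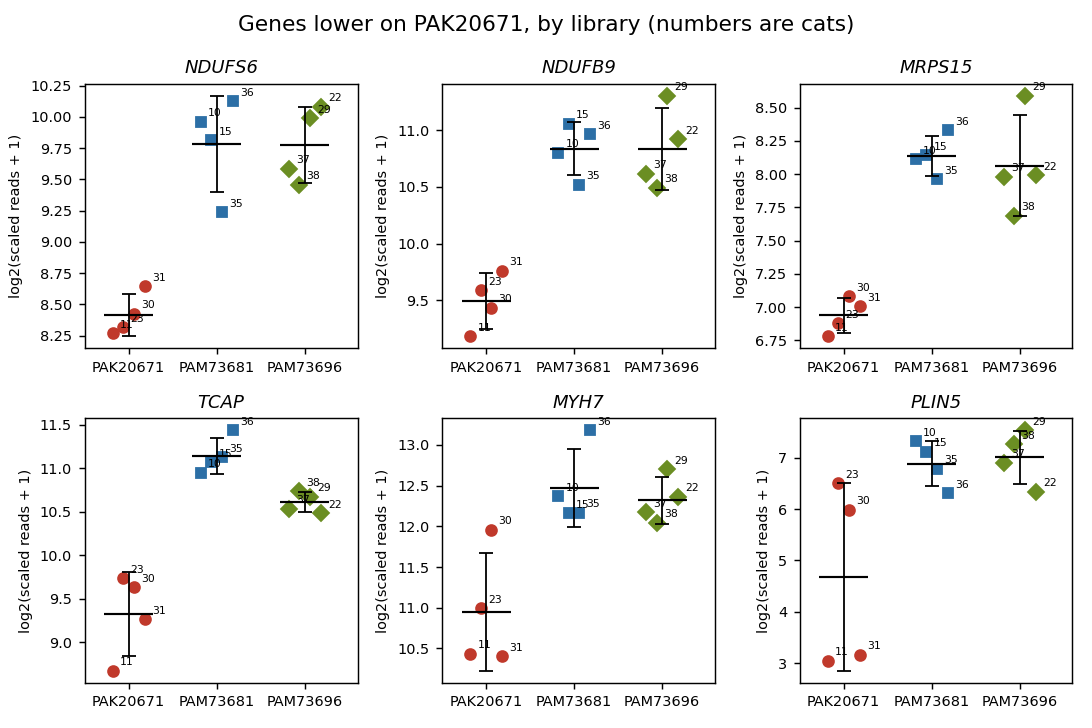
Log2(scaled reads + 1) (y axis) of 6 genes lower on PAK20671 in each of the 12 libraries, by flow cell (x axis); each point is 1 library labelled by its cat, and the line and bar are the mean and SD of 4 libraries. NDUFS6, NDUFB9 and MRPS15 are similar in the 4 PAK20671 libraries, whereas PLIN5 is low in cats 11 and 31 and near the others in cats 23 and 30.

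The remaining fallen sarcomere genes were TNNI3, MYL3, LDB3, MYOM2 and TNNC1. MYL2, the ventricular regulatory light chain, gave 83258, 85820, 80038 and 149212 against 62266 to 165234 (adjusted p = 0.79), and TTN, ACTC1 and DES did not pass. The summed level of the 28 genes therefore overlapped, with 15.3% to 20.1% of reads on PAK20671 and 15.3% to 22.2% on the others. The skeletal actin ACTA1 gave 15464 to 28229 scaled reads against 7415 to 22523 (adjusted p = 0.285). Without cat 11, 2 sarcomere genes passed, without cat 31, 5, and among HF cats alone, none. The atrial light chain MYL7 ranged from 0 to 34.5 on PAK20671 and from 5.72 to 617 on the others (adjusted p = 0.187), and none of 8 tested atrial genes passed.

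Of 37 genes of excitation and calcium handling, HRC, CACNA1C and PLN fell and 1 rose (median -0.40). Over all genes, 3.46% fell and 1.6% rose. No member of the list passed without cat 11, without cat 31 or with the outcome as a covariate. HRC, a calcium-binding protein of the sarcoplasmic reticulum, gave 14.5 and 19.9 scaled reads in cats 11 and 31 and 91.3 and 103 in cats 23 and 30, against 118 to 246 (-1.75 ± 0.42, adjusted p = 0.0251). PLN, phospholamban, gave 1294 and 1645 in cats 11 and 31 and 2618 and 4326 in cats 23 and 30, against 3282 to 4973 (-0.96 ± 0.25, adjusted p = 0.0389). CACNA1C, the pore subunit of the L-type calcium channel, gave 7.24 and 6.38 in cats 11 and 31 and 14.8 and 40.4 in cats 23 and 30, against 25.8 to 55.9 (-1.43 ± 0.38, adjusted p = 0.0369). The low values of these 3 genes were thus deepest in cats 11 and 31, and cat 30 lay inside the range of the others for PLN and CACNA1C.

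The smallest p among the lower genes belonged to PMVK, phosphomevalonate kinase of cholesterol synthesis. PMVK gave 65.2, 75.2, 79.1 and 83.7 scaled reads in cats 11, 23, 30 and 31 against 162 to 305 with a median of 213 (-1.49 ± 0.19, adjusted p = 0.00232). MMAB, which converts vitamin B12 to its coenzyme form, gave 42.0, 53.7, 67.3 and 59.0 against 122 to 191 with a median of 149 (-1.44 ± 0.19, adjusted p = 0.00232). LRPAP1, a chaperone of lipoprotein receptors, gave 31.4, 56.4, 68.2 and 27.9 against 100 to 242 (-1.85 ± 0.27, adjusted p = 0.00232). PRPF6, a splicing factor of the tri-snRNP, gave 15.4, 14.8, 8.42 and 13.6 against 29.7 to 76.2 (-1.88 ± 0.28, adjusted p = 0.00232), and CC2H21orf33 gave 103, 205, 126 and 110 against 284 to 489 (-1.43 ± 0.21, adjusted p = 0.00232). All 5 genes were below every other library in all 4 cats. PRPF6 was the 1 called gene of 86 tested splicing factors (median 0.17), against 3.46% of all genes falling. Of 27 genes of mevalonate, cholesterol and cobalamin metabolism, a list formed after values were seen, PMVK, MMAB, LRPAP1 and ACAT1 were lower and 1 was higher, with a median of -0.03.

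Protein turnover was mixed. The cytosolic ribosome had 3 lower genes of 79, RPL3L, RPS9 and RPS19, a share near the 3.46% of all genes that were lower, and a median of -0.13, which became 0.08 with CPM scaling. RPL3L, the muscle form of ribosomal protein L3, gave 110, 278, 210 and 132 scaled reads against 303 to 1282 (-1.66 ± 0.37, adjusted p = 0.0176). Among 61 translation factors, 4 rose, including EIF1AX (1.27 ± 0.28), EIF4G2 (0.80 ± 0.18) and EIF4A1 (1.17 ± 0.29), and 4 fell, including EEF1D (-1.03 ± 0.18), EIF3K (-0.79 ± 0.17) and EEF1A2 (-1.21 ± 0.28). EEF1A2, the elongation factor form of adult muscle, was lowest in cat 11 with 1354 against 3822 to 4521 in the other PAK20671 cats. The proteasome had 3 lower genes of 43 (PSMD4, PSME1 and PSMC3; median -0.08, and 0.13 with CPM scaling), and autophagy and lysosome had 4 of 49 (median -0.31, and 0.08 with no scaling), among them GAA, lysosomal alpha-glucosidase, with -1.45 ± 0.26, CTSD with -1.30 ± 0.30 and OPTN with -1.03 ± 0.28. Single members were called among nuclear transport genes (CSE1L, 0.998 ± 0.261, of 50) and ubiquitin ligases (TRIM55, which binds sarcomeric titin, 1.10 ± 0.26, of 43). Over all genes 1.6% rose and 3.46% fell, and each of these single calls was near the share that rose.

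**Figure D4:**
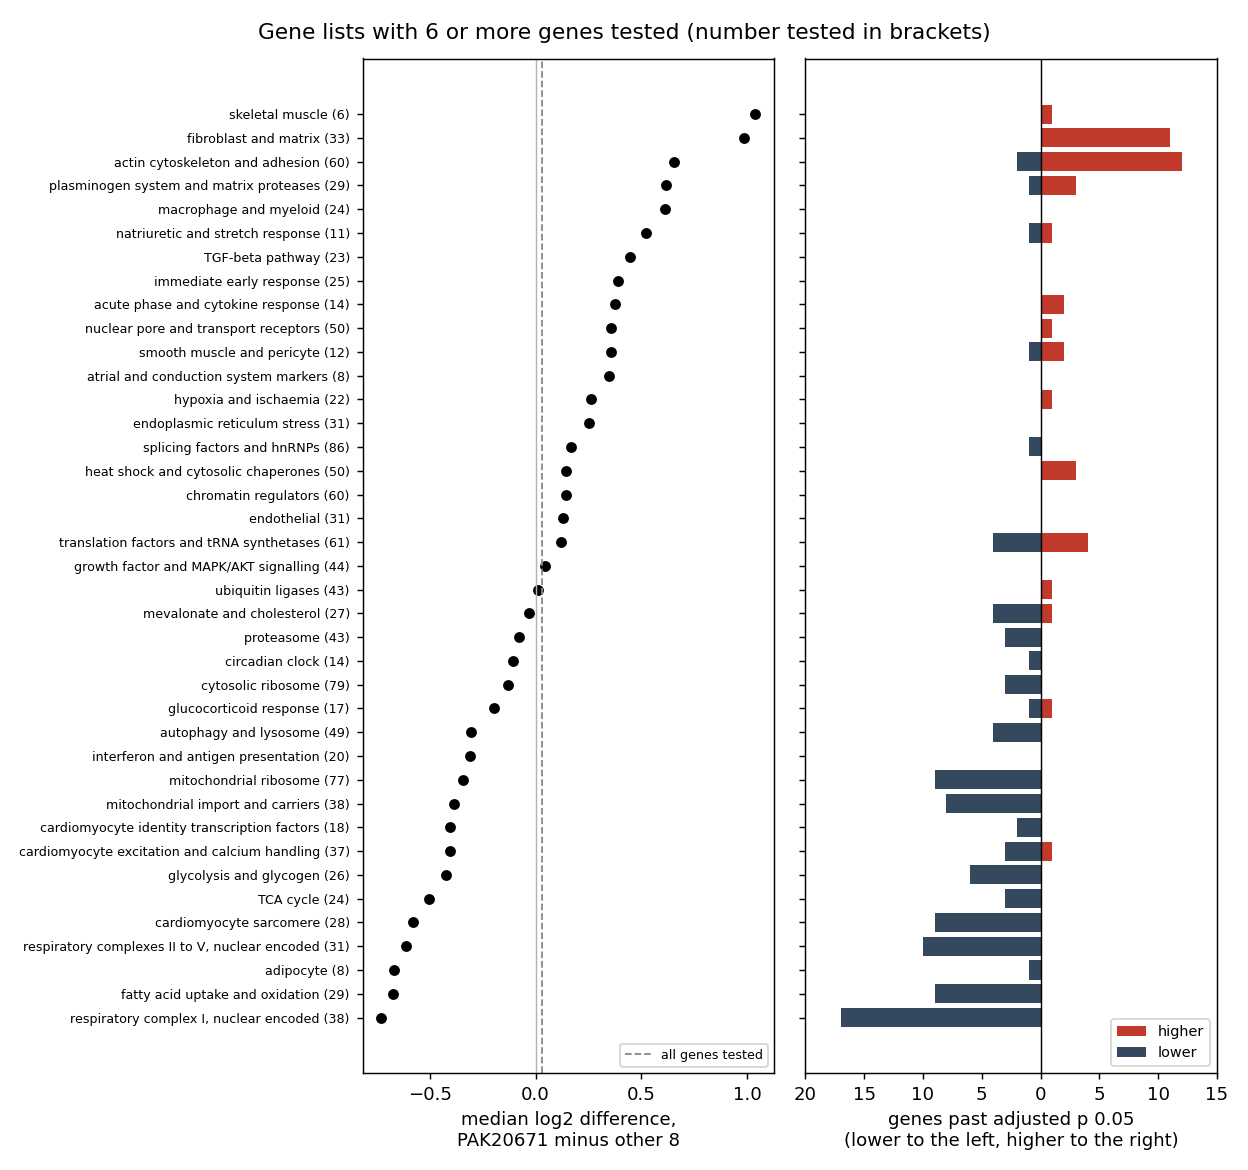
Left, median log2 difference between PAK20671 and the other 8 libraries for each gene list with at least 6 genes tested (number in brackets); the dashed line is the median of all genes tested. Right, the number of genes in each list past an adjusted p of 0.05, lower to the left and higher to the right; complex I has 17 lower genes and fibroblast and matrix 11 higher ones.

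Reference genes of the study's PCR work did not pass. HPRT1 gave 78.7, 65.8, 79.97 and 73.4 scaled reads against 55.8 to 90.9 (0.04 ± 0.19, adjusted p = 0.924). YWHAZ gave 312, 207, 210 and 203 against 84.4 to 234 (adjusted p = 0.167). Both overlapped between the groups.

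The 2 other flow cells were also compared with each other. On the second principal component (14.3% of the variance) PAM73681 scored from -2.64 to 38.4 and PAM73696 from -40.5 to -0.85. Only cats 10 and 29 met there. The lack of called genes does not show that these flow cells were alike. Between PAM73681 and PAM73696, 4 libraries each, no gene passed (0%; limma), with 696 genes at an unadjusted p under 0.05, and edgeR also called 0 with 671 at that level. In fits of the same size, PAK20671 differed from PAM73681 in 320 genes (3.63%) and from PAM73696 in 147 genes (1.67%). These comparisons share the PAK20671 libraries and are given side by side only. CNN1 differed by 5.86 from PAM73681 and by 5.95 from PAM73696, SERPINB2 by 3.57 and 3.33, NDUFS6 by -1.37 and -1.36, NDUFB9 by -1.34 and -1.34 and PMVK by -1.52 and -1.45. COL1A1 differed by 3.27 and 1.98, COL3A1 by 2.75 and 0.93, and ANKRD2 by 1.90 and 3.77. The median of the fibroblast list was 1.31 against PAM73681 and 0.75 against PAM73696, and that of complex I was -0.69 and -0.83; between PAM73681 and PAM73696 themselves these medians were -0.67 and -0.08.

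Both pairwise counts rested on single libraries. The count against PAM73681 was 42 without cat 11, 63 without cat 15, 127 without cat 31, 147 without cat 36 and 196 without cat 10. It was 294 without cat 35, and it rose to 330 without cat 23 and 382 without cat 30. The count against PAM73696 was 9 without cat 31, 15 without cat 11, 19 without cat 29, 60 without cat 38, 74 without cat 37 and 84 without cat 22, and it rose to 242 without cat 30 and 282 without cat 23. Without the libraries labelled as cats 22 and 29, the comparison with all remaining libraries called 344 genes, of which 301 were among the 446. Whether PAK20671 was read on another device or day than the other flow cells is not given in the sources used here.

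**Figure D5:**
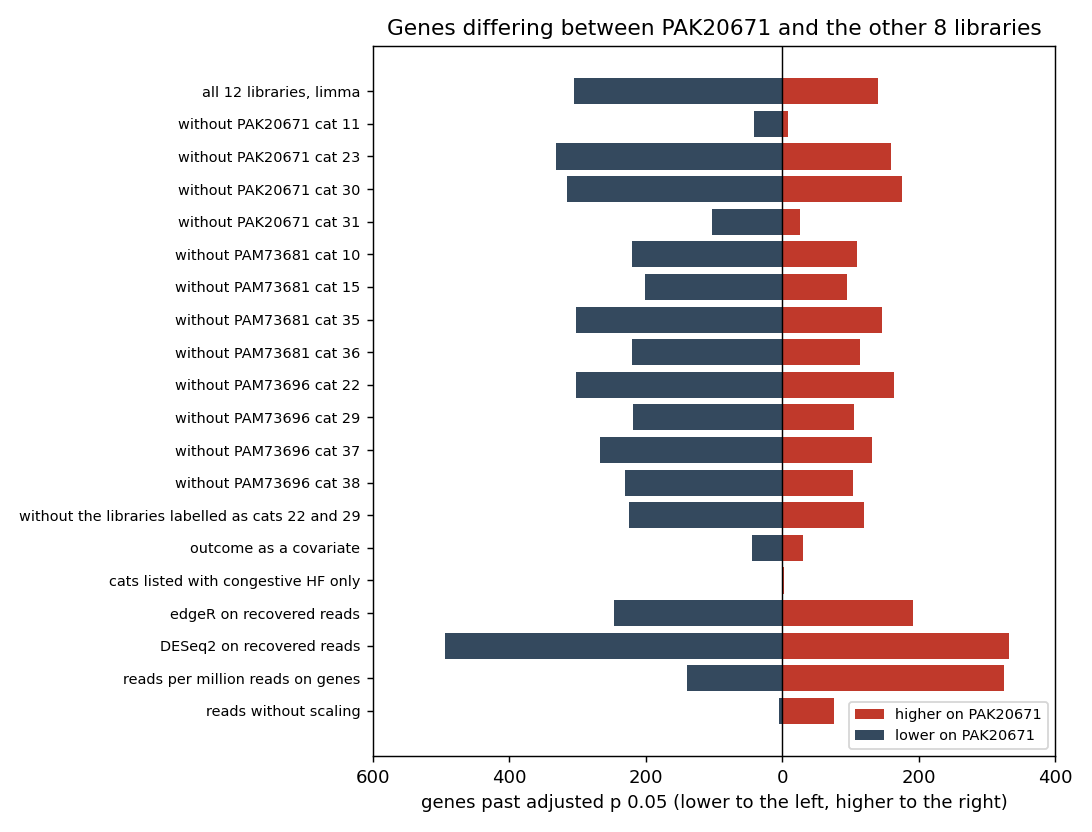
Number of genes past an adjusted p of 0.05 between PAK20671 and the other libraries (x axis; higher to the right, lower to the left) with all 12 libraries, with each library left out, and under other models and scalings (y axis). The bars are shortest for the HF cats alone (4 genes) and without cat 11 (51 genes).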

How the data were processed

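Left ventricular RNA of 12 cats was sequenced with the direct RNA kit named in the labels. Per the study's methods, reads were filtered on quality and mapped to felCat9; per the submitters' processing notes minimap2 and featureCounts were used, without versions, and strand settings were not given in the sources used here. The authors deposited 1 table of 30785 genes whose values are a normalised signal: reads divided by a size factor per library (0.699 to 2.07). Whole reads were recovered for 100% of values (tolerance 1e-06). Of 14375 identifiers without a symbol, 391 were named through RefSeq gene IDs (assembly F.catus_Fca126_mat1.0, names only).

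The 8820 genes that reached 10 reads in 3 or more libraries were tested with limma 3.58.1 (R 4.3.3, trended empirical Bayes) on log2(value + 1), with Benjamini-Hochberg adjustment over all of them. edgeR 4.0.16 (438 genes called) and DESeq2 1.42.0 on the recovered reads, other scalings, filters and covariates, and leaving out each library were alternatives. The script was tested on simulated counts with 200 of 8820 genes changed. It recovered 4.5% of the genes changed by 1 log2, 78.5% of those changed by 2 and 92.5% of those changed by 3. Most changes of 1 log2 thus went uncalled. P-values cover the spread between cats, 1 library each. Outcomes came from the study's cohort description, not from the labels. Genes named were the 12 with a symbol and the smallest p in each direction, up to 3 called genes per direction in each of 45 lists (3 further lists were added after values were seen), and defining markers whatever their result; others are said to be chosen after their values were seen or are further members of a list. The members and lists were chosen with earlier results of these data known. Same-barcode libraries of different flow cells did not deviate together (r from -0.083 to 0.108), so barcodes were used as a block only as an alternative. Sequences were not used here. A few genes that the rule names are not reported here.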

Additional observations from a re-analysis of the deposited data

Results flagged for a closer look

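Within the PAK20671 libraries and within the other 8, 192 sets of values (named genes and library measures) were examined for a lowest or highest library far from the rest by Dixon's ratio, and 14 were marked, where chance marks about 1 in 20. On PAK20671, MYL2 was high in cat 31 (149212 scaled reads, next 85820), YWHAZ was high in cat 11 (312, next 210), EEF1A2 was low in cat 11 (1354, next 3822), COL5A2 was low in cat 30 (49.7, next 75.8), and ADIPOQ was above 0 in cat 31 alone (0.798, next 0). Among the other 8 libraries, the library labelled cat 29 was highest for MRPL12 (951, next 636), TNNT2 (11001, next 7523), HRC (246, next 146) and ETFB (1390, next 765), all of them genes lower on PAK20671. Cat 10 was highest for CNN1 (19.2, next 2.86) and ADIPOQ (4.51, next 0.788), cat 15 for ACAA2 (249, next 161), and cat 35 was lowest for SDHB (1456, next 1951) and PSME1 (47.3, next 83.1). The CNN1 value of cat 10 was still below the lowest PAK20671 library (47.1). The ADIPOQ marks rest on 1 read in cat 31 and 4 reads in cat 10, close to the detection limit.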

How the results depend on the processing

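The 446 genes called between PAK20671 and the other 8 libraries, 31.6% of them higher, became 827 with DESeq2, 75 with the outcome as a covariate, 4 among HF cats only (75% higher) and 81 without scaling (93.8% higher); 69.9% of the calls were higher with CPM scaling and 43.6% with edgeR. Leaving out each library in turn gave 51 to 492 genes, 17.6% to 35.6% of them higher. The difference in reads on genes turned to -38377 without cat 11 and ran up to 452907 across the libraries left out. The count against PAM73681 (320) became 182 without a filter on reads and 42 to 382 with a library left out, that against PAM73696 (147) 9 to 282, and that between PAM73681 and PAM73696 (0) 0 to 2. The cause of these shifts was not tested. None of the 77 named and called genes changed sign in up to 28 alternatives each, and the 14 named and tested genes that missed the threshold passed it in none. An alternative with protein length was not run, since no lengths of the files' build were used here. No paired analysis was possible because the flow cells share no cat numbers. With 4 against 8 libraries, a gene that did not pass may still differ, and genes under about 10 reads per library were not tested.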
